A study of Arabidopsis thaliana with 41 samples.

Results

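To describe how the leaf transcriptome changes when both Arabidopsis *EPL1* genes are disrupted, 3 RNA-seq libraries of the double mutant *Atepl1-2*, with the titles epl1_1, epl1_3 and epl1_4, were compared with 3 wild-type (WT) libraries titled WT_5, WT_7 and WT_8. These 6 of the 16 RNA-seq libraries form the first of 2 label sets. The second holds another 3 *Atepl1-2* libraries, which bear the same replicate numbers as those of the first, and 1 WT library. What separates these sets, and whether they share plant material, is not given in the labels. All plants were of the Col-0 accession, grown with 16 h of light and 8 h of darkness, and leaves 5 to 6 were taken when about 10 leaves had formed, 5 h after the light came on. In *Atepl1-2*, deletions cut by Cas9 shift the reading frame near the 5′ ends of both *AtEPL1A* and *AtEPL1B*. The line was made by crossing a single mutant of each gene, no longer carries the Cas9 transgene, and is compared here with unedited plants. Each library came from 110 mg of leaf tissue pooled from several plants, labelled as biological repeats, so p-values measure the spread between pools. Of 31742 nuclear genes in the count table, 18540 had enough counts to be tested.

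NuA4 is a histone acetyltransferase complex that acetylates the tails of histone H4 and of the variant H2A.Z, marks found at the start of transcribed genes. Its catalytic part, known in yeast as picNuA4, is held together by EPL1, which also joins it to the platform subunit EAF1 of the full complex. In a growing leaf, cell division is followed by expansion, in which new cellulose and loosened wall polymers let the cell take up water through aquaporins. Leaf immunity relies on receptors at the cell surface and in the cytosol, on salicylic acid as a signal, and on secreted proteins and antimicrobial compounds as output.

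The deletions were directed by a pair of guides for each gene, assigned here by their sequence. The oligo names of the *AtEPL1A* pair carry an *Atepl1b* label. According to the paper, the *AtEPL1A* deletion ends in an intron downstream of the second cut site, so the guides alone do not give its ends. Each sequence is followed by its protospacer adjacent motif in capitals, the bases Cas9 needs beside its target.
AtEPL1A guide in coding exon 1: atcttttcgaccccgtccacTGG
AtEPL1A guide at the start of coding exon 3: tttgcagctcgggctgagctTGG
AtEPL1B guide in coding exon 1: gaatgtctaatggccgtggcCGG
AtEPL1B guide at the start of coding exon 3: tatgcagctcggtctgagctTGG
On TAIR10.1, the *AtEPL1A* guides match chr1:5706469-5706488 and chr1:5706908-5706927, both on the plus strand, as is the gene. The *AtEPL1B* guides match chr1:29730020-29730039 on the plus strand and chr1:29729603-29729622 on the minus strand, the strand of the gene. Both genes have 12 coding exons in the RefSeq annotation, and 13 of the 20 bases of each exon 3 guide lie in the exon, the rest in the intron before it.

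The mutated genes were counted over their whole length, most of which the deletions leave in place. *AtEPL1B* (AT1G79020) was at 11.7, 8.80 and 10.0 CPM (counts relative to the library total, scaled by edgeR's TMM factors) in *Atepl1-2*, against 2.58, 2.57 and 2.48 CPM in WT. *AtEPL1A* (AT1G16690) was at 3.81, 4.11 and 3.87 CPM in *Atepl1-2*, against 2.15, 1.47 and 2.25 CPM in WT. Neither gene's groups overlapped, and both were higher in the mutant, with log2 fold changes of 2.00 (SE 0.15, FDR 4.32e-06 from edgeR) and 1.01 (SE 0.19, FDR 0.00114). The rise of *AtEPL1B* was smaller in the second label set, by 1.76 on the log2 scale in a fit of both sets. Gene counts of this kind do not test whether a deletion is present, so they neither bear out the labels nor go against them.

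The libraries held 22330141 to 27594664 estimated counts in *Atepl1-2* and 23881499 to 30781762 in WT. Chloroplast genes took 54.9%, 53.6% and 55.9% of the counts in *Atepl1-2* and 60.0%, 65.7% and 61.2% in WT, means of 54.8% ± 1.15 and 62.3% ± 2.99 (SD, n = 3 each). The groups did not overlap, and the difference of −7.50 percentage points had a two-sided exact permutation p of 0.1, the smallest that 3 against 3 libraries allow. Nuclear genes were left with 40.5% to 42.7% of the counts in *Atepl1-2* and 31.5% to 36.4% in WT, and between 18347 and 18860 of them had at least 10 counts in *Atepl1-2*, against 17301 to 17549 in WT. Across nuclear genes, which are not independent replicates, log2(CPM + 1) of 2 libraries was correlated at r = 0.984 to 0.987 within *Atepl1-2* and 0.986 to 0.988 within WT, but at 0.787 to 0.846 between them.

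A gene was taken as changed at a Benjamini-Hochberg FDR under 0.01 and at least 1.5-fold in edgeR's quasi-likelihood test over all genes. By this rule 8398 nuclear genes changed in *Atepl1-2*, 45.3% of those tested. Of these, 4033 fell (21.8%) and 4365 rose (23.5%), with median log2 fold changes of −1.27 and 1.44. The CPM of 12720 genes (68.6%) did not overlap between the groups. Rises reached further than falls: 565 genes rose and 42 fell by at least 16-fold, while 3081 rose and 2735 fell by at least 2-fold. No counts were found in any WT library for 168 genes that rose, nor in any *Atepl1-2* library for 4 that fell. All list counts below are to be read against 21.8% and 23.5%, and list medians against the median of all nuclear genes, 0.05 on the log2 scale. That median depends on scaling: it was 0.38 with log2(TPM + 1), 0.67 with log2(TPM + 0.1) and 0.17 where nuclear TPM were first rescaled to one sum, and of the genes called 13.6%, 14.5% and 29.9% were lower on these scales, against 48.0% in edgeR.

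Of the 7 themes into which the lists other than markers were grouped, growth had the largest share of genes that fell. Over 10 lists of cell wall, cell division, cytoskeleton and water channel genes, 123 of 224 genes tested fell (54.9%) and 31 rose (13.8%), with a median log2 fold change of −1.01. Among single lists, the photosystem and antenna genes of the chloroplast theme fell more often than any growth list (60 of 64, 93.8%). That theme, with 31.4% lower, also held the pentatricopeptide repeat genes, of which 12.4% fell. In bulk leaf RNA, fewer cells of a type and less RNA per cell cannot be told apart.

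**Figure D1:**
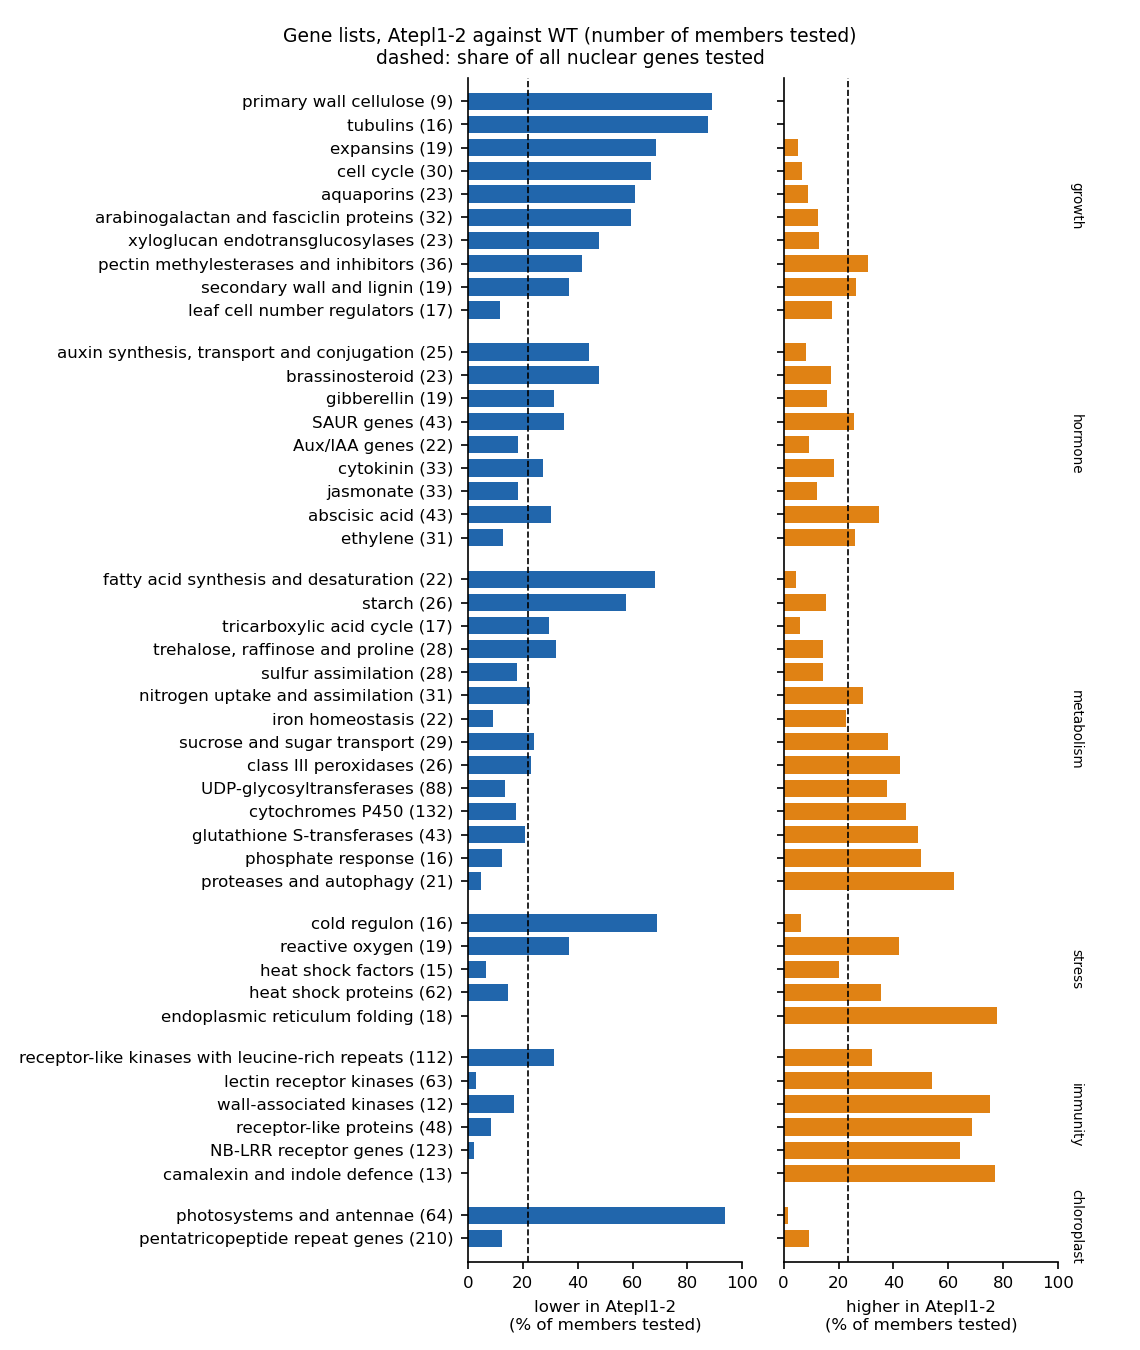
Share of the tested members of each gene list that were lower (left) or higher (right) in *Atepl1-2* than in WT at the threshold; numbers of members tested are in parentheses and the dashed lines mark 21.8% and 23.5% of all nuclear genes. Lists of cellulose, tubulin and photosystem genes reach far past the line on the left, and those of endoplasmic reticulum folding, camalexin, wall-associated kinase and receptor genes far past it on the right.

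Cellulose in the growing wall is made by synthase complexes of CESA1, CESA3 and CESA6-type subunits. Of 9 genes tested for primary wall cellulose, 8 fell and 0 rose. The groups did not overlap in any of the 9, against 68.6% of all nuclear genes. *CESA1* (AT4G32410) was at 51.6, 41.0 and 52.2 CPM in *Atepl1-2*, against 115, 116 and 117 CPM in WT, a log2 fold change of −1.27 (SE 0.14, FDR 4.54e-05 from edgeR). The 3 WT libraries were nearly equal and all 3 *Atepl1-2* libraries lay well under them. *CESA3* was at 84.4, 77.6 and 103 CPM in *Atepl1-2* and 252, 270 and 241 CPM in WT (log2 fold change −1.52, SE 0.16). *COB*, which encodes COBRA, a membrane-anchored protein that orients cellulose, had the larger fall, at 17.6, 14.6 and 20.4 CPM in *Atepl1-2* and 63.1, 58.5 and 55.0 CPM in WT (log2 fold change −1.75, SE 0.15). With nuclear TPM rescaled to one sum 5 of the 9 fell, and with log2(TPM + 1) 2 of them.

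Wall loosening genes included larger falls. Expansins are proteins that loosen the wall without cutting its polymers, and 13 of 19 fell, 1 rose, with a median of −1.37. *EXPA11* (AT1G20190) was at 1.77, 0.691 and 1.36 CPM in *Atepl1-2*, against 30.8, 26.3 and 23.8 CPM in WT. Its levels were 21.2-fold lower in the mean, with no overlap (log2 fold change −4.38, SE 0.25, FDR 9.25e-07 from edgeR). *EXPA16* had 0.120, 0.109 and 0.228 CPM in *Atepl1-2* and 6.31, 3.41 and 3.06 CPM in WT (log2 fold change −4.75, SE 0.42). Xyloglucan endotransglucosylases, which cut and rejoin the tethers between cellulose fibrils, had 11 of 23 members lower and 3 higher, with a median of −1.39. *XTH4* was at 4.17, 6.18 and 9.91 CPM in *Atepl1-2*, against 84.3, 124 and 113 CPM in WT, and even the highest mutant library was far under the lowest WT library (log2 fold change −3.98, SE 0.31, FDR 4.46e-06). Arabinogalactan and fasciclin-like proteins, glycoproteins of the wall and cell surface, had 19 of 32 members lower and 4 higher, with a median of −1.66. *FLA11*, known from secondary wall stems, was at 0.510, 0.691 and 0.390 CPM in *Atepl1-2* and 4.25, 3.96 and 3.68 CPM in WT (log2 fold change −2.90, SE 0.22). On the log2(TPM + 1) scale 8 expansins fell.

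Other wall genes moved both ways. Of 36 pectin methylesterases and their inhibitors, which set how stiff pectin gels become, 15 fell and 11 rose. Of 19 secondary wall and lignin genes 7 fell and 5 rose (median −0.43). Only 1 fell with rescaled nuclear TPM and 0 with log2(TPM + 1) or among genes with a mean of at least 1 TPM, and the median was positive with log2(TPM + 0.1), with log2(TPM + 1) and among genes of at least 1 TPM. *CESA8*, a synthase of the secondary wall, had 0.869, 0.727 and 0.423 CPM in *Atepl1-2* and 5.78, 4.08 and 3.34 CPM in WT (log2 fold change −2.69, SE 0.29). *LAC4*, a laccase that links lignin monomers in xylem, was at 0.390, 0.400 and 0.293 CPM in *Atepl1-2* and 4.01, 3.49 and 2.67 CPM in WT (log2 fold change −3.22, SE 0.25). *PAL1*, the entry enzyme of phenylpropanoid synthesis, which feeds lignin and defence compounds alike, was higher, at 102, 135 and 126 CPM in *Atepl1-2*, against 52.3, 50.8 and 54.2 CPM in WT (log2 fold change 1.20, SE 0.15). *CAD5*, which makes lignin alcohols, rose by 2.35 (SE 0.24). The calls of *CESA8* and *LAC4* were lost with log2(TPM + 1), a scale that compresses changes of low genes. That of *PAL1* was lost when WT library 4 of the second set, at 14.2 CPM, was added. Its log2 fold change was then 1.52, and it was 2.18 in the second set.

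In the cell cycle list, 20 of 30 genes fell and 2 rose, with a median of −1.41. *CYCD3;1*, a D-type cyclin that drives entry into division, was at 0.689, 0.327 and 0.618 CPM in *Atepl1-2*, against 2.58, 2.36 and 2.63 CPM in WT (log2 fold change −2.18, SE 0.26, FDR 7.57e-05 from edgeR). *KN*, which encodes KNOLLE, the syntaxin of the dividing cell's new wall, had 0.450, 0.218 and 0.455 CPM in *Atepl1-2* and 1.86, 2.86 and 2.34 CPM in WT (log2 fold change −2.62, SE 0.30). *PCNA1*, the sliding clamp of DNA replication, fell by 2.48 (SE 0.30). An inhibitor moved the other way. *KRP1* (AT2G23430), which blocks cyclin-dependent kinases, was at 5.48, 5.16 and 3.90 CPM in *Atepl1-2*, against 0.717, 0.800 and 0.716 CPM in WT, 6.52-fold higher with no overlap (log2 fold change 2.69, SE 0.21, FDR 5.14e-06). The count depended on scaling and filter: 5 members fell with rescaled nuclear TPM, 1 with log2(TPM + 1), and 2 where a mean of at least 1 TPM was asked for. *CYCB1;1*, the mitotic cyclin, was too low to be tested.

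Tubulins, the subunits of the microtubules that guide cellulose synthase, were lower almost as a family, with 14 of 16 members lower and 0 higher (median −1.30). *TUB8* was at 7.70, 6.58 and 8.87 CPM in *Atepl1-2*, against 40.2, 42.3 and 53.3 CPM in WT (log2 fold change −2.55, SE 0.16, FDR 1.66e-06 from edgeR). Aquaporins, the water channels of the plasma membrane and tonoplast, had 14 of 23 members lower (median −0.85). *GAMMA-TIP* (AT2G36830), a main channel of the vacuole membrane, was at 12.7, 11.3 and 11.9 CPM in *Atepl1-2* and 108, 84.8 and 102 CPM in WT. It was 8.23-fold lower, with every mutant library far under every WT library (log2 fold change −3.04, SE 0.15). Tubulin and aquaporin genes have close copies between which reads can be divided. With log2(TPM + 1) 7 tubulins and 7 aquaporins fell.

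**Figure D2:**
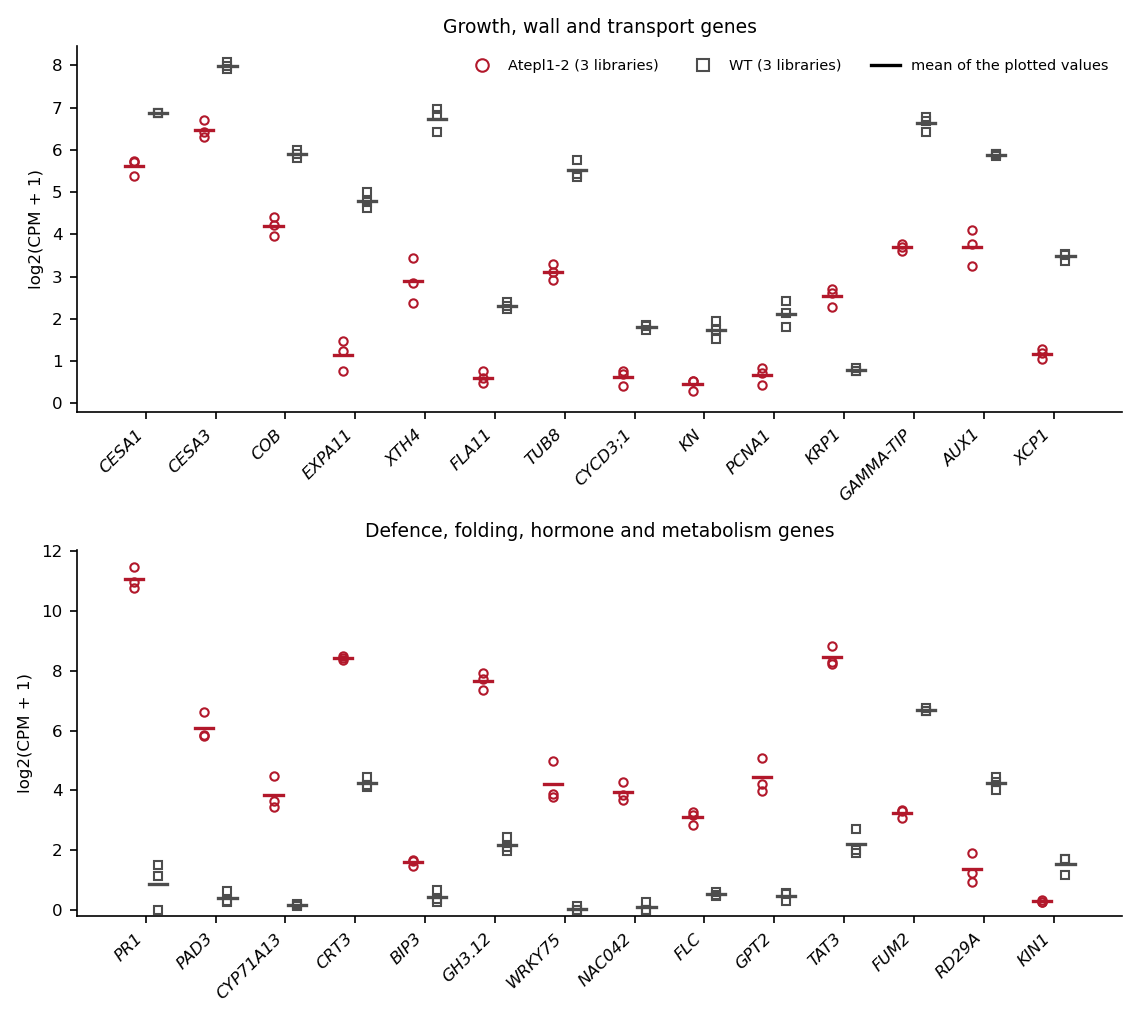
Level of selected genes in each library as log2(CPM + 1), with *Atepl1-2* (circles) left of WT (squares) and bars for the mean of the plotted values. In the upper panel *KRP1* is higher in the mutant and the other growth genes lower. In the lower panel *FUM2*, *RD29A* and *KIN1* are lower in the mutant and the other genes higher. The groups do not overlap in any gene shown, nor in 68.6% of all nuclear genes.

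Among hormone genes, 79 of 272 fell (29.0%) and 55 rose (20.2%), closer to the shares of all nuclear genes. Auxin synthesis, transport and conjugation genes had 11 of 25 members lower and 2 higher (median −0.98), with 4 lower on either log2(TPM + 1) scale. The auxin uptake carriers stood out: *AUX1* was at 16.3, 8.51 and 12.6 CPM in *Atepl1-2* and 59.0, 58.6 and 56.5 CPM in WT (log2 fold change −2.21, SE 0.21), and its relative *LAX2* fell by 2.40 (SE 0.21). *GH3.12* (AT5G13320), listed with the auxin-conjugating family but known as PBS3 of salicylic acid synthesis, had the largest rise of the list. It was at 163, 240 and 210 CPM in *Atepl1-2*, against 3.34, 4.38 and 2.96 CPM in WT, 57.4-fold higher (log2 fold change 5.84, SE 0.23, FDR 2.63e-07 from edgeR). Of the early auxin response genes, 4 of 22 *Aux/IAA* repressors fell, *IAA3* by 2.16 (SE 0.23), and 15 of 43 *SAUR* genes fell while 11 rose.

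For gibberellin, which promotes leaf expansion, 6 of 19 genes fell and 3 rose. *GA2OX2*, which inactivates the hormone, was at 5.31, 8.00 and 5.56 CPM in *Atepl1-2* and 1.34, 3.16 and 1.86 CPM in WT (log2 fold change 1.55, SE 0.29), and the receptor gene *GID1B* rose by 2.64 (SE 0.24). *GASA6*, a gibberellin-induced gene, was lower, at 32.9, 15.9 and 38.3 CPM in *Atepl1-2* and 211, 191 and 146 CPM in WT (log2 fold change −2.65, SE 0.30). Brassinosteroid genes, which act on cell elongation, had 11 of 23 members lower and 4 higher (median −0.63). The synthesis genes differed among themselves. *DWF1* was at 13.6, 11.4 and 15.7 CPM in *Atepl1-2*, against 91.2, 101 and 121 CPM in WT (log2 fold change −2.94, SE 0.17, FDR 1.02e-06 from edgeR), and *DWF4* fell by 1.27 (SE 0.21), whereas *ROT3* was at 6.08, 5.82 and 6.47 CPM in *Atepl1-2* and 0.812, 0.800 and 0.812 CPM in WT (log2 fold change 2.92, SE 0.17). Of a pair of small bHLH proteins that act against each other in cell elongation, the promoting *PRE6* fell by 2.75 (SE 0.32) and the inhibiting *IBH1* rose by 2.10 (SE 0.24). The medians of the gibberellin and brassinosteroid lists changed sign with log2(TPM + 1), where 3 brassinosteroid genes fell.

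Cytokinin is read out by the type-A response regulators, its early induced repressors. *ARR6* was at 0.569, 0.582 and 0.455 CPM in *Atepl1-2* and 4.78, 3.91 and 4.06 CPM in WT (log2 fold change −2.98, SE 0.20), and *ARR7* fell by 1.45 (SE 0.23). *ARR15* had 0, 0.0727 and 0 CPM in *Atepl1-2* against 1.05, 1.18 and 1.10 CPM in WT, 45.8-fold lower with a 95% counting interval of 13.6 to 429. This fall was absent from the second label set, where the log2 fold change of *ARR15* was 0.30. *ARR5* overlapped between the groups of the first set, at 8.21, 10.5 and 12.1 CPM in *Atepl1-2* and 12.9, 11.8 and 9.46 CPM in WT. In the whole cytokinin list 9 of 33 genes fell and 6 rose. Ethylene genes had 4 of 31 lower and 8 higher. *ERF1*, a transcription factor where ethylene and jasmonate signals meet, was at 6.29, 8.58 and 10.7 CPM in *Atepl1-2* and 1.24, 0.589 and 0.573 CPM in WT (log2 fold change 3.42, SE 0.31).

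Abscisic acid genes moved both ways, with 13 of 43 lower and 15 higher, or 5 and 8 with WT library 4 added. *CYP707A2*, which breaks the hormone down, was at 16.2, 19.5 and 11.5 CPM in *Atepl1-2* and 2.58, 1.39 and 0.955 CPM in WT (log2 fold change 3.26, SE 0.31). *NCED5*, of the synthesis step, had 2.19, 2.40 and 1.46 CPM in *Atepl1-2* and 0 counts in each WT library, at least 14.7-fold higher against a floor of 3 counts per library. The response gene *RD29A* (AT5G52310) was lower, at 1.38, 0.909 and 2.76 CPM in *Atepl1-2* and 15.3, 18.2 and 20.7 CPM in WT (log2 fold change −3.41, SE 0.31, FDR 1.18e-05 from edgeR). *RD29A* also belongs to the cold regulon, genes induced by cold through CBF factors, of which 11 of 16 fell and 1 rose (median −1.38). *KIN1* of the same regulon was at 0.210, 0.255 and 0.195 CPM in *Atepl1-2* and 2.29, 1.26 and 2.29 CPM in WT (log2 fold change −3.12, SE 0.35). With WT library 4 added, 5 of the cold genes fell, and 4 with log2(TPM + 1). Jasmonate genes had 6 of 33 lower and 4 higher: *AOS*, a synthesis enzyme, fell by 1.12 (SE 0.16), a call lost with WT library 4 added, and *TAT3*, a tyrosine aminotransferase induced by the hormone, was at 302, 449 and 312 CPM in *Atepl1-2* and 3.01, 5.55 and 2.77 CPM in WT, 93.7-fold higher (log2 fold change 6.54, SE 0.33).

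**Figure D3:**
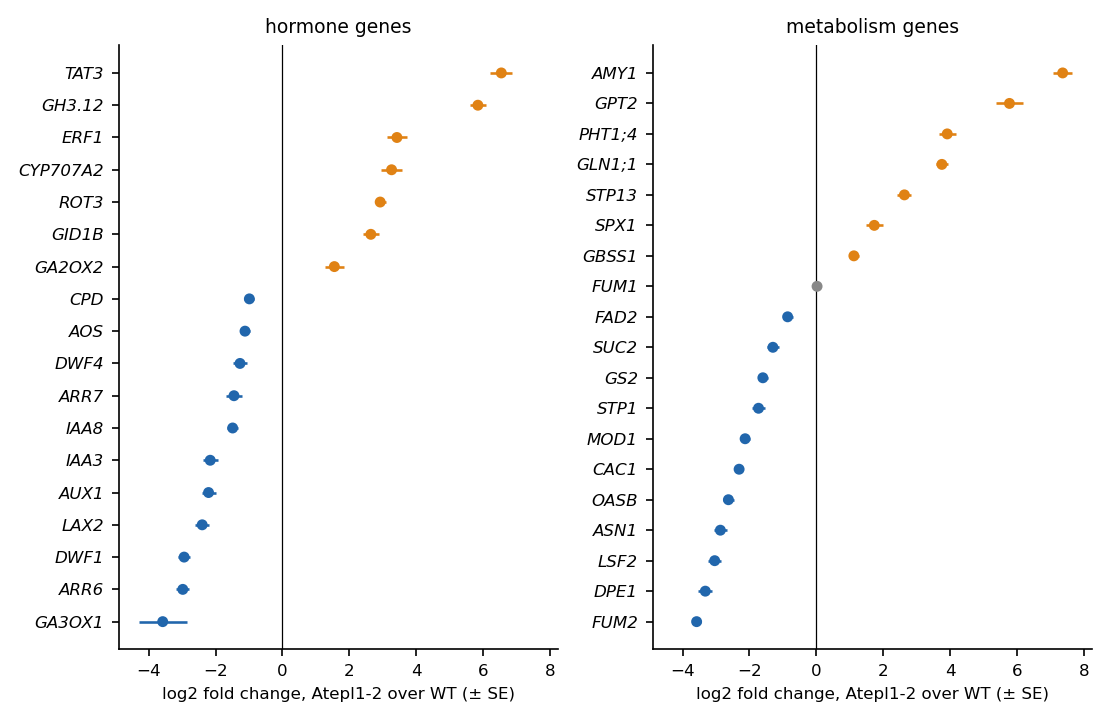
Log2 fold change (*Atepl1-2* over WT) with its standard error for selected hormone genes (left) and metabolism genes (right); orange points rose, blue points fell and the grey point, *FUM1*, did not pass the threshold. The points run from −3.58 for *FUM2* and *GA3OX1* to 7.36 for *AMY1*.

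Metabolic genes differed between pathways. Over 14 lists, 117 of 526 genes fell (22.2%) and 182 rose (34.6%). Starch genes mostly fell, with 15 of 26 lower and 4 higher (median −0.69; 5 lower, and a positive median, with log2(TPM + 1)). *DPE1*, the disproportionating enzyme of starch breakdown in the chloroplast, was at 2.07, 1.02 and 1.56 CPM in *Atepl1-2* and 14.6, 16.5 and 16.1 CPM in WT (log2 fold change −3.32, SE 0.21, FDR 1.42e-06 from edgeR). *LSF2*, a glucan phosphatase of the same route, fell by 3.04 (SE 0.19). *GBSS1*, which makes amylose, was higher by 1.12 (SE 0.15), a call lost with WT library 4 added, and *AMY1*, an alpha-amylase that is secreted rather than plastidic, was at 50.8, 69.4 and 46.7 CPM in *Atepl1-2*, against 0.191, 0.421 and 0.382 CPM in WT, 168-fold higher (log2 fold change 7.36, SE 0.28). *GPT2*, which carries glucose 6-phosphate into plastids, was at 17.8, 33.1 and 14.8 CPM in *Atepl1-2* and 0.239, 0.463 and 0.478 CPM in WT (log2 fold change 5.77, SE 0.41). Among sugar transporters the directions were opposite, with *STP13*, a hexose carrier induced in infected leaves, higher by 2.63 (SE 0.21) and *SUC2*, the phloem sucrose loader, lower at 54.0, 57.1 and 40.1 CPM in *Atepl1-2* against 137, 127 and 109 CPM in WT (log2 fold change −1.30, SE 0.17). *CWINV6*, a cell wall enzyme of the invertase family, was at 58.7, 80.8 and 57.5 CPM in *Atepl1-2* and 0.382, 0.295 and 0.382 CPM in WT, 186-fold higher.

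Some isoenzymes of one step, placed in different cell compartments, moved apart. The plastid glutamine synthetase gene *GS2* was at 356, 304 and 359.8 CPM in *Atepl1-2*, against 1048, 1073 and 980.3 CPM in WT (log2 fold change −1.60, SE 0.16), whereas the cytosolic *GLN1;1* was at 271, 393 and 299 CPM in *Atepl1-2* and 22.8, 25.6 and 22.8 CPM in WT (log2 fold change 3.75, SE 0.19, FDR 5.27e-07 from edgeR). *ASN1*, an asparagine synthetase induced in the dark, fell by 2.87 (SE 0.19), and *OASB*, the plastid enzyme that makes cysteine, by 2.63 (SE 0.17). Fumarase genes differed too. The mitochondrial *FUM1* was at 28.6, 26.4 and 29.0 CPM in *Atepl1-2* and 27.1, 28.3 and 27.3 CPM in WT, overlapping (log2 fold change 0.02, SE 0.11), although it was called higher on the log2(TPM + 1) and log2(TPM + 0.1) scales. The cytosolic *FUM2* (AT5G50950) was at 9.23, 7.49 and 9.003 CPM in *Atepl1-2* and 100.3, 100.3 and 107 CPM in WT, 11.95-fold lower (log2 fold change −3.58, SE 0.14, FDR 2.62e-07). In the list of the tricarboxylic acid cycle, 5 of 17 genes fell and 1 rose. The call of *GS2* was lost when WT library 4 was added.

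Fatty acid synthesis and desaturation genes, most of which act in the plastid, had 15 of 22 members lower (median −0.87). The groups did not overlap in any of the 22, against 68.6% of all nuclear genes. *CAC1*, the biotin carrier of acetyl-CoA carboxylase, was at 2.91, 2.98 and 3.02 CPM in *Atepl1-2* and 15.3, 14.7 and 14.1 CPM in WT (log2 fold change −2.31, SE 0.12), and *MOD1*, the enoyl reductase of the cycle, fell by 2.13 (SE 0.16). With log2(TPM + 1) 6 of these genes fell, and 8 with WT library 4 added. Genes of the phosphate starvation response rose, 8 of 16 against 2 that fell (median 0.79): *PHT1;4*, a phosphate transporter, was at 7.25, 9.49 and 6.21 CPM in *Atepl1-2* and 0.382, 0.505 and 0.621 CPM in WT (log2 fold change 3.91, SE 0.25), and *PAP17*, an acid phosphatase, rose by 3.74 (SE 0.25). Enzyme families of secondary metabolism and detoxification rose more often than they fell, with 59 of 132 cytochromes P450 higher and 23 lower, 33 of 88 UDP-glycosyltransferases higher and 12 lower, and 21 of 43 glutathione S-transferases higher and 9 lower. On the log2(TPM + 1) scale, 6 cytochromes P450, 6 glycosyltransferases and 3 glutathione S-transferases fell. Members were not uniform. *PAD3* (AT3G26830), the P450 of the last step to camalexin, was at 57.2, 98.6 and 55.0 CPM in *Atepl1-2* and 0.191, 0.547 and 0.239 CPM in WT, 216-fold higher (log2 fold change 7.70, SE 0.38), while *CYP81D11* was at 1.02, 0.436 and 1.01 CPM in *Atepl1-2* and 15.9, 15.1 and 22.5 CPM in WT, 21.8-fold lower.

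Of 21 proteases and autophagy genes 13 rose and 1 fell (median 0.78). *GAMMA-VPE*, a vacuolar processing protease, was at 270.4, 402 and 280.0 CPM in *Atepl1-2* and 28.6, 22.1 and 22.9 CPM in WT (log2 fold change 3.69, SE 0.21). *NBR1*, a cargo receptor of autophagy, was at 175, 219 and 178 CPM in *Atepl1-2* and 71.2, 61.6 and 66.3 CPM in WT (log2 fold change 1.52, SE 0.15). Chaperones of the endoplasmic reticulum, where secreted proteins fold, had 14 of 18 members higher and 0 lower (median 1.83). *CRT3* (AT1G08450), a plant calreticulin needed to fold an immune receptor, was at 347, 358 and 327 CPM in *Atepl1-2*, against 16.2, 20.9 and 17.3 CPM in WT, 19.0-fold higher with no overlap (log2 fold change 4.24, SE 0.17, FDR 2.63e-07 from edgeR). *PDIL1-2*, a disulfide isomerase, rose by 2.69 (SE 0.12), *SDF2* by 1.68 (SE 0.12), and *BZIP60*, a transcription factor of the unfolded protein response, by 1.63 (SE 0.23). Heat shock proteins moved both ways, with 22 of 62 higher and 9 lower. Of the oxygen radical genes, *RBOHF*, a plasma membrane NADPH oxidase, was at 53.2, 89.6 and 74.6 CPM in *Atepl1-2* and 11.1, 8.92 and 6.40 CPM in WT (log2 fold change 3.04, SE 0.25), and *TAPX*, the thylakoid ascorbate peroxidase, fell by 3.17 (SE 0.18).

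Immunity had the largest share of genes that rose among these themes: over 6 lists of receptors and camalexin synthesis, 201 of 371 genes were higher (54.2%) and 46 lower (12.4%), with a median of 0.94. Intracellular NB-LRR receptors had 79 of 123 members higher (median 0.99; 52 with WT library 4 added), receptor-like proteins 33 of 48 (2.05), lectin receptor kinases 34 of 63 (1.13) and wall-associated kinases 9 of 12 (1.99). *RLP20* had 9.20, 14.0 and 9.85 CPM in *Atepl1-2* and 0 counts in each WT library, at least 80.2-fold higher. *WAK3* was at 106, 149 and 109 CPM in *Atepl1-2* and 0.382, 0.842 and 0.430 CPM in WT, 220-fold higher (log2 fold change 7.74, SE 0.29, FDR 2.09e-07 from edgeR). Receptor kinases with leucine-rich repeats, a family that serves development as well as defence, split instead, with 36 of 112 higher and 35 lower, although 2 were lower with rescaled nuclear TPM and 0 with log2(TPM + 1). *GSO1*, known for the barrier of the root endodermis and the embryo surface, was at 0.180, 0.291 and 0.163 CPM in *Atepl1-2* and 3.20, 3.49 and 3.44 CPM in WT, 16.0-fold lower. Genes for camalexin and indole compounds, antimicrobial products of tryptophan, had 10 of 13 members higher and 0 lower. *CYP79B2*, their entry enzyme, was at 159, 237 and 184 CPM in *Atepl1-2* and 40.6, 42.8 and 36.4 CPM in WT (log2 fold change 2.27, SE 0.18), and *CYP71A13*, further along, was 116-fold higher with a 95% counting interval of 57.1 to 262. Many of these receptors lie in clusters of close copies, between which Salmon divides reads, so the level of a single member is less certain than the family count.

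The largest rises by log2 fold change included genes listed at 0 counts in every WT library. *CCOAMT* (AT1G67980), annotated as a caffeoyl-CoA methyltransferase, had 16.2, 29.9 and 23.0 CPM in *Atepl1-2*, at least 168-fold above the floor of 3 counts. The same bound was 110-fold for *PXMT1*, another methyltransferase, 94.1-fold for the transcription factor gene *WRKY38*, 81.6-fold for *KTI1*, a trypsin inhibitor, and 78.9-fold for *OSM34*, an osmotin. *PR1* (AT2G14610), the classical marker of salicylic acid signalling, was at 1750, 2860 and 1993 CPM in *Atepl1-2*, against 0, 1.18 and 1.86 CPM in WT, a log2 fold change of 11.07 (SE 0.82, FDR 3.72e-06 from edgeR). Among the largest falls, *PQL3*, a chloroplast protein related to PsbQ of photosystem II, had 0 counts in each *Atepl1-2* library and 2.29, 2.69 and 2.72 CPM in WT, at least 26-fold lower. *PAR1*, a small bHLH protein of the shade response, was at 0.480, 0.218 and 0.293 CPM in *Atepl1-2* and 9.75, 8.54 and 15.1 CPM in WT (log2 fold change −5.02, SE 0.32). *THI2.2*, a thionin, fell by 4.92 (SE 0.30) and *CYTC6A*, a thylakoid lumen cytochrome, by 4.84 (SE 0.24).

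Transcription factor genes rose more often than they fell. Over 15 families, 221 of 653 genes rose (33.8%) and 85 fell (13.0%), with a median of 0.35. The NAC family, with many members active in stress and senescence, had 37 of 57 members higher and 3 lower (median 1.54). *NAC042*, also known as JUNGBRUNNEN1, was at 13.4, 18.3 and 11.8 CPM in *Atepl1-2* and 0, 0 and 0.191 CPM in WT, a log2 fold change of 7.78 (SE 0.48, FDR 1.34e-06 from edgeR). The WRKY family had 32 of 56 higher and 2 lower (median 1.15), and *WRKY75*, at 12.8, 31.0 and 13.6 CPM in *Atepl1-2* and 0.0955, 0 and 0 CPM in WT, was 600.4-fold higher with a 95% counting interval of 168 to 5020. MYB genes had 26 of 51 members higher, among them *MYB2* at 8.24, 12.1 and 11.5 CPM in *Atepl1-2* and 0.191, 0.0842 and 0.430 CPM in WT (log2 fold change 5.50, SE 0.34). Zinc fingers of the C2H2 type had 17 of 41 higher and 5 lower, and *ZAT7*, a stress-induced repressor, rose by 3.48 (SE 0.27).

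Families linked to growth and light were mixed or mostly not called. Of 87 bHLH genes 18 rose and 15 fell, of 49 bZIP genes 11 rose and 10 fell, and of 58 homeobox genes 18 rose and 9 fell. With log2(TPM + 1) 3 bHLH, 4 bZIP genes and 1 homeobox gene fell, and with WT library 4 added 10 homeobox genes rose. Within bZIP, *TGA7*, of the group that binds salicylic acid co-activators, was at 23.0, 27.0 and 17.6 CPM in *Atepl1-2* and 1.15, 0.505 and 1.05 CPM in WT (log2 fold change 4.66, SE 0.27), while *BZIP61* was at 1.62, 1.46 and 1.89 CPM in *Atepl1-2* and 17.1, 18.9 and 19.6 CPM in WT (log2 fold change −3.48, SE 0.14, FDR 2.93e-07 from edgeR). Close homeobox relatives of the shade response went apart. *HAT1* was at 2.64, 0.727 and 1.43 CPM in *Atepl1-2* and 22.5, 20.4 and 16.2 CPM in WT (log2 fold change −3.59, SE 0.33), and *HB4* at 3.03, 1.86 and 1.92 CPM in *Atepl1-2* and 0.239, 0.295 and 0.191 CPM in WT (log2 fold change 3.20, SE 0.34). TCP factors, which set leaf size, had 3 of 18 higher, and GRAS factors, which include the DELLA proteins, 5 of 27 higher. Among 31 MADS-box genes 11 rose, or 7 with WT library 4 added, and 3 fell. *FLC*, the repressor of flowering, rose by 4.10 (SE 0.23). The ERF and DREB family had 25 of 94 higher and 16 lower, but 9 fell without *Atepl1-2* replicate 3 and 15 rose without WT replicate 8.

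**Figure D4:**
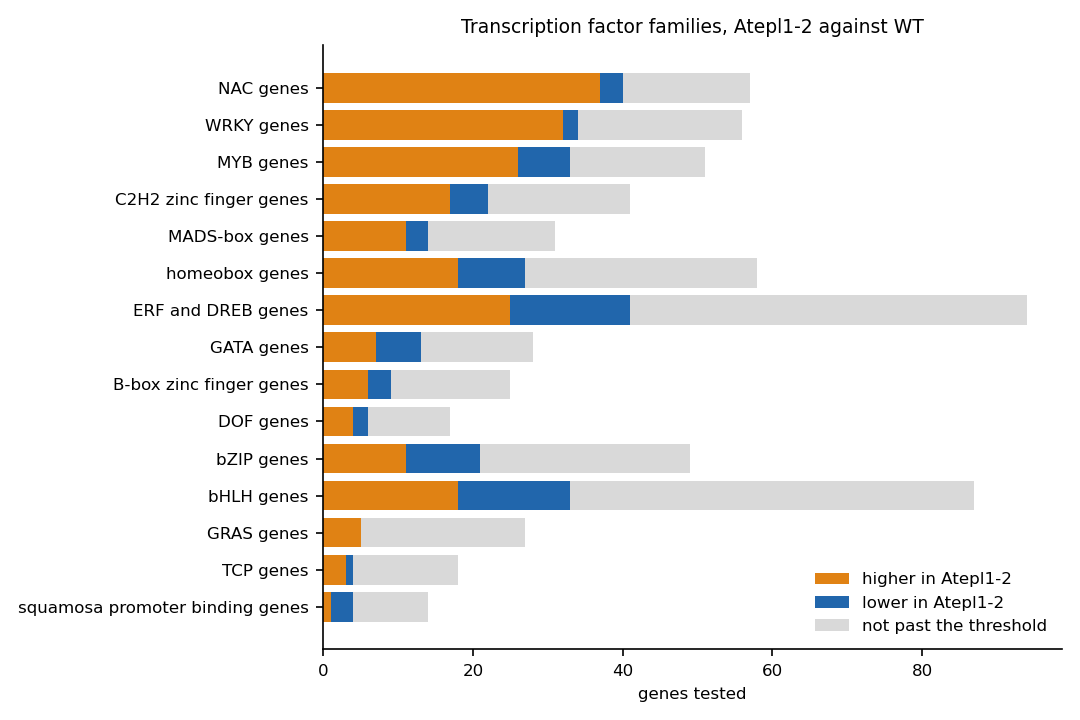
Number of genes tested in each of 15 transcription factor families, divided into those higher in *Atepl1-2*, those lower and those not past the threshold, with families ordered by the share higher. NAC (37 of 57), WRKY (32 of 56) and MYB (26 of 51) genes have the largest shares higher, and the squamosa promoter binding genes the smallest.

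The lists grouped under the chloroplast theme differed, but the pentatricopeptide repeat list was not divided into chloroplast and mitochondrial members. Of 64 photosystem and antenna genes 60 fell and 1 rose (median −1.57), for example *LHCB2.3* at 156, 92.0 and 180 CPM in *Atepl1-2* and 1228, 1050 and 1159 CPM in WT. Of 210 pentatricopeptide repeat genes, which process organelle RNA, 26 fell (12.4%) and 19 rose (9.05%), against 21.8% and 23.5% of all nuclear genes, with a median of 0.03 that was −0.44 among genes with a mean of at least 1 TPM. The count that rose was 9 without *Atepl1-2* replicate 1, 11 without *Atepl1-2* replicate 3, 10 without WT replicate 5, 11 without WT replicate 7, 6 with WT library 4 added, 2 with rescaled nuclear TPM and 70 with log2(TPM + 0.1). With log2(TPM + 1), 39 of the photosystem genes and 4 of the repeat genes fell. By RNA class, 77 of 245 genes for long non-coding RNA rose (31.4%) and 21 fell (8.57%), against 4241 (23.4%) and 3999 (22.1%) of 18110 protein-coding genes. By chromosome, the share of genes that fell was between 21.0% and 22.6% and the share that rose between 22.2% and 24.9%.

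Markers of cell types were summed in each library. Palisade and mesophyll markers, cells that make up most of a leaf blade, summed to 9445 to 13117 CPM in *Atepl1-2* and 27536 to 31052 CPM in WT, with 5 of 9 lower (median −0.86). With WT library 4 added 1 of them was lower and with log2(TPM + 1) 2, and in the second set 0 of 9 were lower (median 0.04). Xylem markers differed by more, with 8 of 8 lower (median −2.64; 2 lower with log2(TPM + 1)) and sums of 11.0 to 13.4 CPM in *Atepl1-2* and 49.8 to 61.7 CPM in WT. *XCP1*, a protease of maturing vessels, was at 1.44, 1.27 and 1.07 CPM in *Atepl1-2* and 10.5, 10.7 and 9.36 CPM in WT (log2 fold change −3.00, SE 0.16, FDR 6.06e-07 from edgeR). Several xylem markers, *LAC4* among them, are also on the secondary wall and lignin list, and their part in the xylem result was not tested. That list as a whole moved both ways (7 of 19 lower and 5 higher, median −0.43). Guard cell markers summed to 596 to 786 CPM in *Atepl1-2* and 974 to 1038 CPM in WT. Only 2 of 10 were lower (20%, median −0.53), and 0 with WT library 4 added or with rescaled nuclear TPM. *FAMA*, which specifies guard cells, was at 3.51, 3.09 and 3.25 CPM in *Atepl1-2* and 3.39, 3.28 and 3.34 CPM in WT. Meristem and boundary markers summed to 32.6 to 44.7 CPM in *Atepl1-2* and 40.9 to 56.3 CPM in WT, with 0 of 2 tested called, *CLV3* at 0 counts in all 6 libraries and *STM* at 0, 0.109 and 0 CPM in *Atepl1-2* and 0 in WT. Trichome markers summed to 18.5 to 21.0 CPM in *Atepl1-2* and 10.8 to 13.9 CPM in WT, with 2 of 6 higher and 0 lower (median 0.70), and *GL1* had 0 counts throughout. Root markers summed to 20.5 to 27.6 CPM in *Atepl1-2* and 6.35 to 9.13 CPM in WT, with 3 of 6 higher (median 1.16; 1 higher with WT library 4 added), and in the second set 3 of 6 were higher as well (median 2.34).

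The second label set shared no library with the first, but its single WT library had to be assumed to vary like the other groups. Fitted together in 10 libraries, 1660 of 20861 nuclear genes fell in the second set (7.96%) and 2043 rose (9.79%), and the difference between the sets passed for 175 (0.839%). Of the 4033 genes that fell in the first set, 3343 (82.9%) had a lower level in the second too and 1273 (31.6%) passed there, while 24 passed in the opposite direction. Of the 4365 that rose, 3816 (87.4%) were higher in the second set, 1605 (36.8%) passed and 8 passed in the opposite direction. The median changes of these genes were smaller in the second set, −1.27 in the first against −0.79 in the second for those that fell, and 1.44 against 1.13 for those that rose.

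Lists differed in how far the second set followed. The median of xyloglucan endotransglucosylases was 0.13 in the second set (−1.39 in the first), that of expansins −0.56 (−1.37) and that of aquaporins −0.35 (−0.85). Endoplasmic reticulum folding genes had 11 of 18 higher there and a median of 1.63, NAC genes 24 of 57 and 1.33, WRKY genes 25 of 56 and 1.90, and cold regulon genes 11 of 16 lower and −2.11. Primary wall cellulose genes had 3 of 9 lower and a median of −1.20, and *COB* passed in both sets. The cell cycle list, by contrast, had 1 of 30 lower and 1 higher and a median of 0.05, and NB-LRR genes had 10 of 123 higher, 6 lower and a median of −0.31. The test of the difference between the sets rests on the 1 WT library of the second set. Members of the cell cycle and NB-LRR lists did not pass it, which does not show that they behaved alike in both sets.

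**Figure D5:**
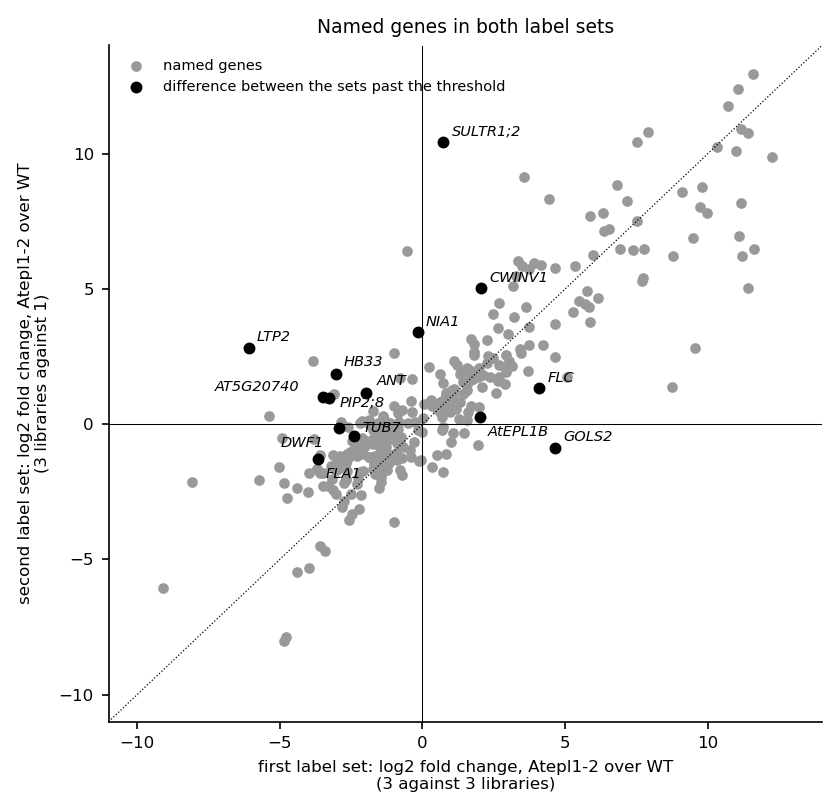
Log2 fold change (*Atepl1-2* over WT) of the 321 named genes tested, in the first label set (horizontal axis, 3 against 3 libraries) and in the second (vertical axis, 3 libraries against 1); the dotted line marks equal values. Most points lie in the lower left and upper right, and 14 genes in black, such as *LTP2* (−6.09 and 2.83) and *SULTR1;2* (0.73 and 10.44), differ between the sets past the threshold.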

How the data were processed

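Leaf RNA was sequenced after ribosomal RNA removal with a stranded total RNA kit. Estimated counts and TPM per gene were deposited by the authors, who trimmed reads with BBDuk2 and quantified them with Salmon (version 0.13.1 in the submitters' processing notes, build TAIR10) on Araport11 transcripts with sequence and GC bias correction; no other normalization was applied to the estimated counts, while TPM, also made by the authors, are scaled to gene length and library. Each library held 22330141 to 30781762 estimated counts, which were rounded.

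Genes were tested with edgeR 4.0.16 (R 4.3.3; TMM factors, filterByExpr, quasi-likelihood F test, Benjamini-Hochberg adjustment over all 18840 genes tested, of 32865) and called at an FDR under 0.01 and at least 1.5-fold. The SE is the log2 fold change divided by the square root of F. Fold changes given without log2 are ratios of mean CPM; where 1 group had 0 counts throughout, a floor of 3 counts per library was used, and for very low counts a 95% interval that covers counting error only. A fit over 10 libraries gave the second label set and the difference between sets. In this set, the single WT library was assumed to vary as the rest did. Chloroplast shares were compared by an exact permutation test.

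The groups and 71 gene lists were chosen with earlier results of these data known. Of 883 list entries given by name, 53 were not resolved and 4 that matched another gene were dropped. Named genes were the 10 largest rises and falls with no overlap and 10 or more counts in every library of the higher side, preset list members, the 2 largest rises and falls of each list with a mean of at least 1 CPM, the mutated genes, and the 5 most abundant genes called each way; a gene could be left out of the text. Alternatives were DESeq2 1.42.0, limma-voom (limma 3.58.1), limma on TPM with pseudocounts of 1 and 0.1, other filters and thresholds, WT library 4 added, and each library left out. On data simulated with the means and library sizes of this comparison, 161 of 200 changed genes were recovered, 36 of 67 at 2-fold and 64 of 66 at 8-fold, with 2 false calls among 18467 genes. Only 200 genes changed there, against 8398 nuclear genes called in the data. The simulation therefore did not test errors of scaling when many genes change. Guide positions and gene names are from RefSeq, TAIR10.1. Promoter motifs were not analysed here. Figures were drawn with matplotlib 3.10.9.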

Additional observations from a re-analysis of the deposited data

Results flagged for a closer look

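For 14 of the named genes the change in *Atepl1-2* differed between the label sets past the threshold in edgeR's test of the difference, which rests on the 1 WT library of the second set. Values are log2 fold changes in the first set, then in the second, with the difference after them. *LTP2*, a lipid transfer protein, had −6.09 and 2.83 (difference −8.91), and its WT levels in the first set spread from 7.57 to 42.8 CPM. *SULTR1;2*, a sulfate transporter, had 0.73 and 10.44 (−9.69), with 0 counts in the second WT library. *NIA1*, a nitrate reductase, had −0.17 and 3.41 (−3.56). *GOLS2*, a galactinol synthase, had 4.66 and −0.87 (5.55).

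Growth genes made up several of the others. *FLA1* had −3.67 and −1.28 (−2.37), *TUB7* −2.41 and −0.45 (−1.95), and *PIP2;8*, an aquaporin, −3.28 and 0.95 (−4.22). *ANT*, which promotes organ growth, had −1.97 and 1.14 (−3.09), *DWF1* −2.94 and −0.15 (−2.77), and *CWINV1*, a cell wall invertase, 2.04 and 5.04 (−2.98). The homeobox gene *HB33* had −3.04 and 1.86 (−4.90), *AT5G20740*, a pectin methylesterase inhibitor by its annotation, −3.47 and 1.00 (−4.46), *FLC* 4.10 and 1.33 (2.79), and *AtEPL1B* 2.00 and 0.26 (1.76).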

How the results depend on the processing

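With edgeR 4033 nuclear genes fell and 4365 rose. The numbers were 1760 and 4132 with rescaled nuclear TPM, 1031 and 6554 with log2(TPM + 1), 1552 and 9164 with log2(TPM + 0.1), and 1500 and 2090 (3590 in all) where a log2 fold change over 1.5 was asked for. With a library left out in turn, 3452 to 3942 fell and 3666 to 4016 rose, 7118 to 7958 together, and the chloroplast share differed by −8.64 to −5.80 points. DESeq2, limma-voom, other filters and WT library 4 gave numbers within 1.5 times the main ones. Genes that differed between the sets numbered 175, and 105 with limma-voom. Of 5699 values of named genes under 18 settings, 5262 kept direction and side of the threshold, 397 lost the call, 37 gained one and 3 reversed: *SEX1*, −0.04 in edgeR, had 0.65 with log2(TPM + 0.1) and 0.59 with log2(TPM + 1), and *FAMA*, −0.02, had 0.59 with log2(TPM + 0.1). The causes were not tested. No paired analysis was possible because the *Atepl1-2* and WT libraries compared share no replicate number. Genes near 1 CPM rest on few counts, and at 3 libraries a group many 2-fold changes would be missed.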

Other observations

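Long genes fell less often than short ones: 18.3% of genes spanning at least 4 kb fell and 23.7% rose, against 24.2% and 30.0% of genes under 1 kb. With genes divided into 4 equal classes by mean CPM, 27.4% of the highest class fell and 25.5% rose, and 16.7% of the lowest class fell. Lengths and levels are related to how many counts a gene has, and their part in these shares was not tested. Among the most abundant genes that rose, *UBQ10*, a polyubiquitin often used as a reference gene, was at 1379, 1395 and 1150 CPM in *Atepl1-2* and 528, 467 and 482 CPM in WT (log2 fold change 1.41 in edgeR).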
